A study of Mus musculus with 6 samples.

Results

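The potassium channel genes are the protein-coding genes of GENCODE release M21 whose symbol begins with Kcn and a further letter, with a mean normalized read count of 10 or more over the 6 striatal libraries. This rule kept 80 of the 94 protein-coding Kcn genes in the table, and these were 80 of the 17605 genes with such a mean and of all 46078 genes listed. The striatum, the forebrain nucleus that serves movement and reward, was dissected from 3 wild-type (WT) and 3 Shank3 transgenic (TG) male mice on the C57BL/6J strain at 12 weeks of age, with 1 library per mouse. The Shank3 TG mice carried a Shank3 transgene tagged with enhanced green fluorescent protein (EGFP), which overexpresses the postsynaptic scaffold Shank3, and the WT mice carried none. The promoter of the transgene is not given in the sources used here. The replicate numbers below name the mice, and no ranking or pairing by them is stated in the labels.

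Potassium channels let potassium ions leave or enter a cell and thereby set its resting potential, the shape of its action potentials and how often it fires. The voltage-gated families Kcna to Kcnd, Kcnh and Kcnq open on depolarization, the inward rectifiers (Kcnj) hold the membrane near rest, the tandem pore channels (Kcnk) carry leak currents, and the Kcnm, Kcnn and Kcnt channels are opened by intracellular calcium, sodium or other ions. In the striatum, spiny projection neurons are known for strong inward rectification, for fast transient potassium currents of the Kcnd family that delay firing, and for the muscarine-sensitive M current carried by Kcnq channels.

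What the pore-forming members share outside their names is the selectivity filter, the loop that lets potassium pass and keeps sodium out. The filter codons of 4 pore-forming genes are shown, because these genes are among those with the lowest limma P values in the comparison below. The sequences were read from the longest GENCODE M21 coding sequence on GRCm38, 5′ to 3′ on the coding strand, with the filter codons in capitals and 6 bases on either side in lower case.
Kcna6, chr6:126738641-126738667, minus strand: atgaccACGGTAGGTTATGGGgacatg
Kcnt2, chr1:140425272-140425298, plus strand: ttttctACTGTGGGCTTTGGGgatgtc
Kcnh3, chr15:99232923-99232949, plus strand: ctcaccAGTGTGGGCTTCGGCaacgtg
Kcnh4, chr11:100750287-100750313, minus strand: ctcaccAGTGTAGGCTTCGGCaacgtg
Each stretch lay within 1 coding exon. The filter pattern was searched in frame on the coding strand only, as a threonine codon, any codon with T in its middle, a glycine codon, any codon that begins with T and a glycine codon. It was present in 54 of the 66 members of the pore-forming and silent families, in 0 of the 14 auxiliary subunits (Kcnab, Kcne, Kcnip, Kcnmb and Kcnrg) and in 0.867% of 21562 protein-coding genes. A shorter pattern, which lies inside it and leaves out the threonine codon, was present in 65 of the 66, in 0 of the 14 and in 10.4% of all protein-coding genes. Kcnk1 was the pore-forming member without it. Kcnh3 and Kcnh4 held the shorter pattern only, since their capitals open with AGT, which is no threonine codon. The shorter pattern occurred more than 1 time in 8 of 10 Kcnk genes, whose proteins carry a pair of pore loops in tandem, and in 5 of 5 Kcnq genes. A match to these letters is a description of the coding sequence and not a measurement of the channel.

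The libraries held between 27689589 and 36647626 reads counted to genes, and the deposited values are read counts divided by a size factor per library. Shank3 itself was higher in all Shank3 TG mice, with normalized read counts of 29891, 28309 and 26044 against 13807, 12918 and 13865 in WT mice, and its log2 fold change was 1.05 with a standard error (SE) of 0.06 (limma, adjusted P value = 7.04e-05). The transgene and the endogenous gene cannot be told apart in these counts. The defining genes of spiny projection neurons were present in every library, with a summed level over 15 genes of 185024 to 252910 in Shank3 TG mice and 220279 to 254797 in WT mice. Markers of neighbouring tissue were present too, and 1 library stood apart: the summed level of 20 choroid plexus genes was 31124 in TG replicate 1 and between 9337 and 10617 in the other 5 libraries. In whole tissue, fewer cells of a type and less RNA per cell cannot be told apart.

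To describe which potassium channel genes the WT striatum expresses, the normalized read count was divided by the exon length in kilobases (kb). This lets genes of different length be compared. The length counts all annotated exons of a gene, whether or not striatal transcripts hold them. The inward rectifier gene Kcnj4 had the highest level, 2701 ± 85.8 per kb (SD, n = 3), followed by Kcnip2, which encodes a calcium-binding partner of Kcnd channels, at 2337 ± 227, Kcnab2, a cytoplasmic beta subunit of Kcna channels, at 2041 ± 22.4, and Kcna1, an axonal voltage-gated channel, at 1766 ± 41.9. The values of Kcnj4 and Kcnip2 lay further apart than the SD of either, as did those of Kcnip2 and Kcnab2 and of Kcnab2 and Kcna1. Further down were the leak channel Kcnk1 at 1387 ± 40.5 and the astrocyte inward rectifier Kcnj10 at 1315 ± 33.7. The sodium-activated channel Kcnt1 was at 1036 ± 79.7 and the A-type channel Kcnd2 at 997 ± 55.6, within their SD, and the ether-a-go-go family member Kcnh3 was at 951 ± 41.0.

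In the Kcnd and Kcnq families the level fell steeply from the leading genes to the rest. Kcnd2 was at 997 per kb, while its relatives Kcnd3 and Kcnd1 were at 190.3 and 113. Among the M current genes, Kcnq3 and Kcnq5 were at 671 and 517 per kb. Kcnq1, the channel of the cardiac muscle, was at 6.28 per kb. The calcium-activated channels lay closer together. The large-conductance channel Kcnma1, with 16976 annotated exon bases, was at 191 per kb. The small-conductance channels Kcnn3, Kcnn2 and Kcnn1 were at 177, 110.3 and 101. The plot of levels per kb shows the families side by side.

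**Figure D1:**
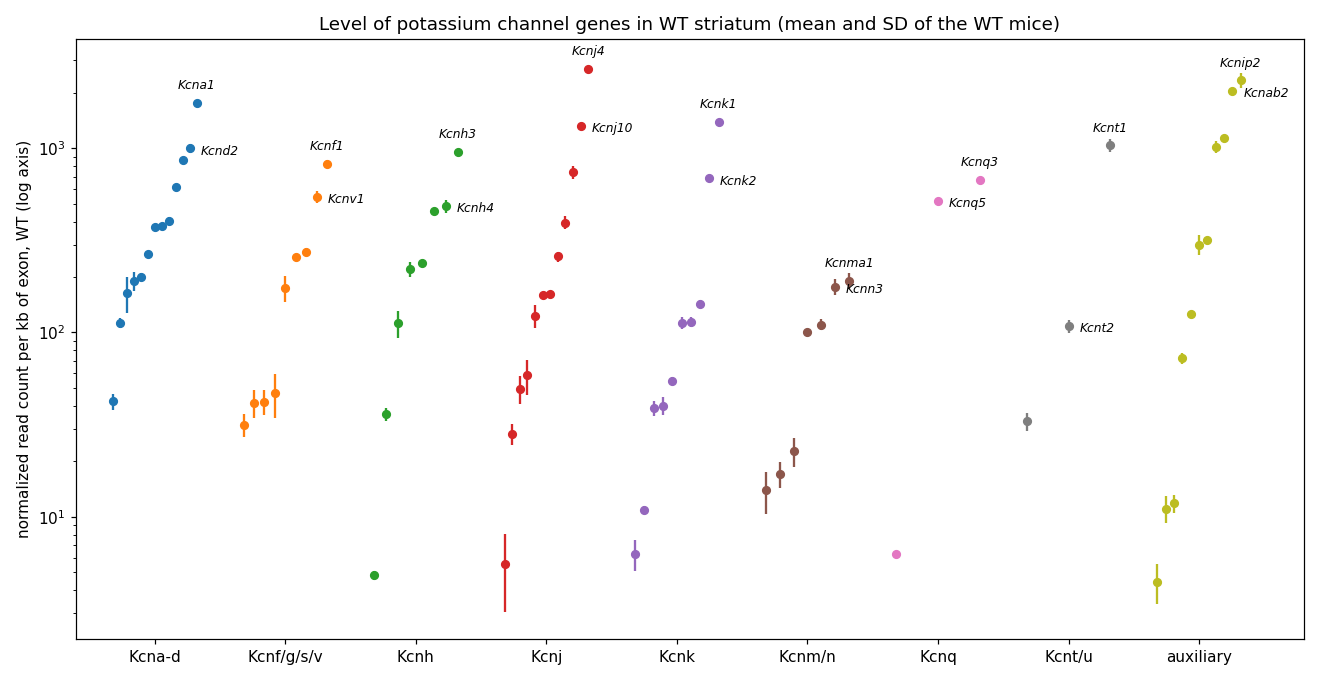
Normalized read count per kb of exon in the WT striatum (log axis) for 76 of the 80 potassium channel genes, by family along the horizontal axis. Points are means and bars are the SD of the 3 WT mice, and the leading plotted genes of each family are named, with Kcnj4 highest at 2701 per kb.

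For the comparison of Shank3 TG with WT mice, limma was fitted to log2(value + 1) over all 17605 genes, and P values were adjusted over all of them. On that scale the change of a gene with few reads is understated. None of the 80 potassium channel genes passed an adjusted P value of 0.05 by limma, where 0.00568% of all genes did, and none did by DESeq2 (0.0398% of all genes), edgeR's quasi-likelihood test or limma-voom (0.00568% each) on the recovered reads. At an unadjusted P value of 0.05, limma called 7 members (8.75%, against 4.31% of all genes tested), DESeq2 5, edgeR 8 and limma-voom 7, against 2.45%, 4.38% and 4.24% of all genes. Of the 7 by limma, 2 had a higher level in Shank3 TG mice (2.5%; all genes, 1.98%) and 5 a lower level (6.25%; all genes, 2.33%). The direction differed between the tests, with 3 higher and 2 lower by DESeq2 and 3 higher and 5 lower by edgeR. Kcne2, described below, was among the higher ones by DESeq2 and by edgeR but not by limma. The groups did not overlap for 7 members (8.75%, against 10.1% of all genes), of which 6 were lower (against 5.05% of all genes) and 1 was higher (against 5.06%). The 7 members by limma had adjusted P values of 0.971, so those described below are given as values and not as calls.

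As a group the potassium channel genes were centred on no difference. Their median log2 fold change was -0.004, against -0.002 for all genes, with the quartiles at -0.075 and 0.064. The members above 0 numbered 39 (48.75%, against 49.2% of all genes) and those below 0 numbered 41. Summed over the 80 genes, the normalized read counts were 189867, 188898 and 196258 in Shank3 TG mice and 190396, 191593 and 196171 in WT mice, and the groups overlapped. The median SD between mice of a group was 0.134 on the log2 scale for the members and 0.108 for all genes. A log2 fold change above 0.2 in size was found for 10 of the 80 members and for 2479 of the 17605 genes tested.

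**Figure D2:**
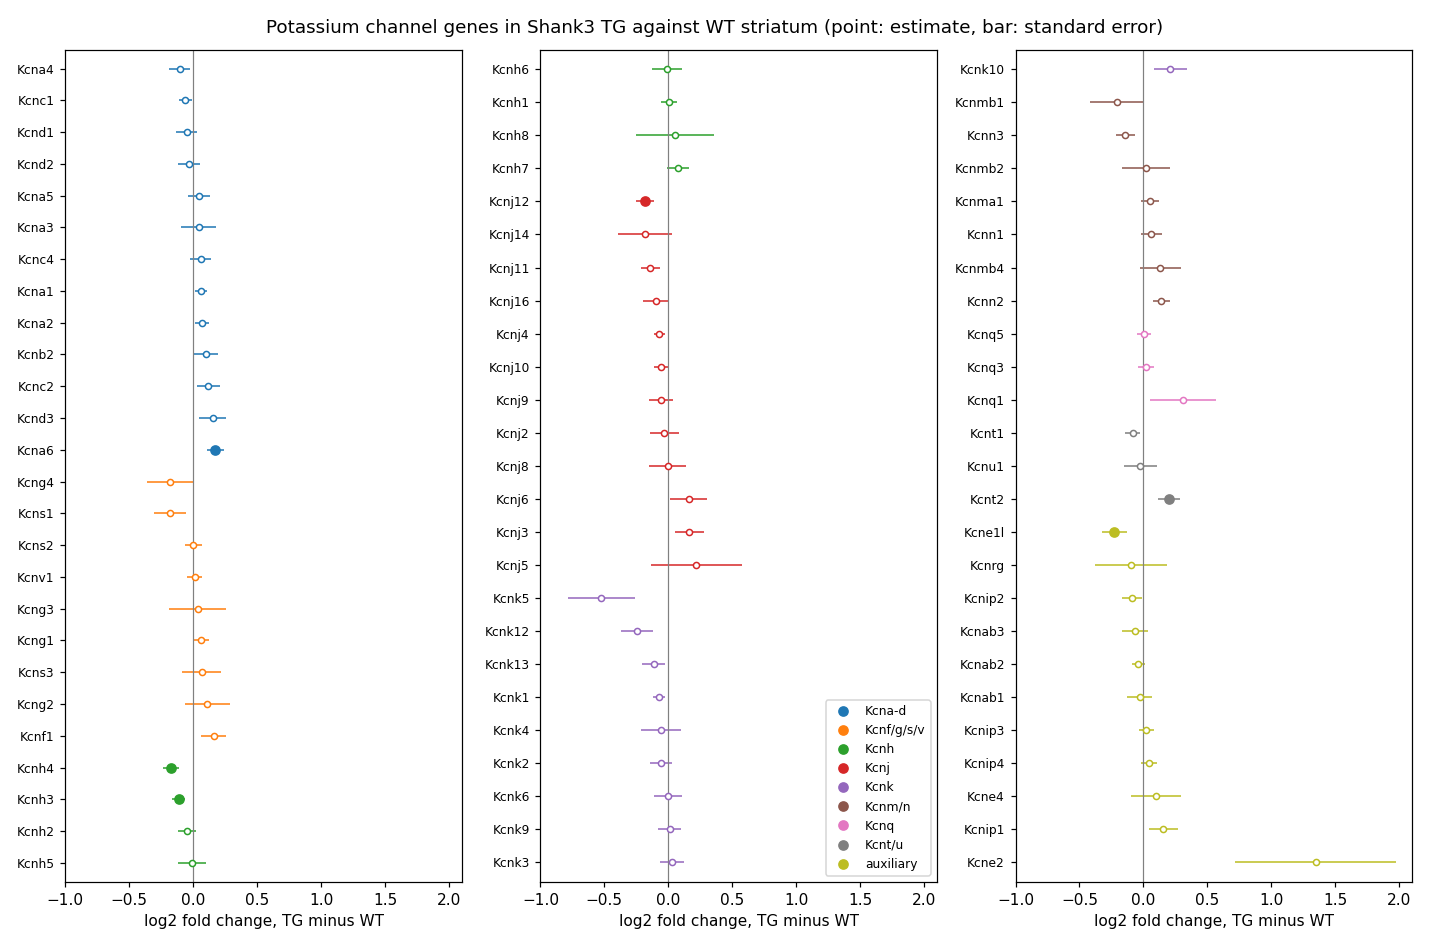
Log2 fold change (horizontal axis, TG minus WT) of 76 potassium channel genes from the limma fit, coloured by family. Points are estimates, bars are the SE, and filled points mark unadjusted P values below 0.05 (6 of the 76 genes plotted), of which Kcna6 and Kcnt2 lie above 0.

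The families Kcna to Kcnd hold the classical voltage-gated channels of axons, cell bodies and dendrites. Their 15 members had a median log2 fold change of 0.04, with 9 above 0 (60%, against 49.2% of all genes). Only 1 of them, Kcna6, had an unadjusted P value below 0.05 by limma (6.67%, against 4.31% of all genes). Kcna6 (ENSMUSG00000038077, chr6:126708329-126740674), a delayed rectifier of the Kcna family, had normalized read counts of 2733, 2296 and 2526 in the Shank3 TG mice, against 2308, 2131 and 2248 for WT. TG replicate 2 lay below WT replicate 1, so the groups overlapped. The log2 fold change was 0.17 (SE 0.07, limma, P value = 0.024), and the exact permutation test over the mice gave 0.2, where the smallest P value that 3 against 3 mice allow is 0.1. Without TG replicate 1, TG replicate 3 or WT replicate 2 the limma P value of Kcna6 was no longer below 0.05. On the opposite strand, the antisense gene Gm26673 shares 2355 of the 5945 exon bases of Kcna6 (39.6%), and since the library kit does not mark strand, reads from the shared bases cannot be told apart.

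The abundant members of these families lay close to 0. Kcna1 read 8624, 8556 and 9247 in Shank3 TG mice against 8370, 8284 and 8666 in WT mice (log2 fold change 0.06, SE 0.05). Kcna2 had a log2 fold change of 0.07 (SE 0.05). The fast channels that let neurons fire at high rates read -0.06 (SE 0.05) for Kcnc1 and 0.12 (SE 0.09) for Kcnc2. Kcnd2, which carries the A-type current of dendrites, read 4379, 5718 and 5065 in Shank3 TG mice against 4893, 5071 and 5454 in WT mice. TG replicates 1 and 2 were the lowest and the highest of all 6 libraries for Kcnd2, and the log2 fold change was -0.03 (SE 0.08). The 9 silent subunits Kcnf, Kcng, Kcns and Kcnv, which form no channel alone and modify Kcnb channels, had a median of 0.03. Of these subunits 7 were above 0 (77.8%, against 49.2% of all genes). None had an unadjusted P value below 0.05 by limma (all genes, 4.31%). Among them Kcnf1, the most abundant, read 5126, 3656 and 4553 against 3873, 4138 and 3826, so that TG replicate 2 was the lowest and TG replicate 1 the highest library.

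The Kcnh family comprises the ether-a-go-go channels. Of its 8 members 3 were above 0 and 5 below (62.5%, against 50.8% of all genes), with a median of -0.01. The lowest limma P value among the 80 genes belonged to Kcnh4, and Kcnh3 of the same Elk branch also had an unadjusted P value below 0.05. Kcnh4 (ENSMUSG00000035355, chr11:100740376-100759942) read 1679, 1715 and 1687 in the Shank3 TG mice, against 1838, 1807 and 2098 for WT. All Shank3 TG values lay below all WT values, and WT replicate 3 stood above the other WT mice. The log2 fold change was -0.17 (SE 0.06, limma, P value = 0.0178, exact permutation 0.1), a level 11.5% lower, and its size was between 0.11 and 0.21 with any 1 library left out. Only without WT replicate 3 was the P value of Kcnh4 above 0.05, at 0.081. Kcnh3 (ENSMUSG00000037579, chr15:99224861-99242817) read 5117, 4862 and 5185 against 5627, 5201 and 5590, again without overlap, although TG replicate 3 and WT replicate 2 differed by less than the SD of either group. Its log2 fold change was -0.11 (SE 0.05, limma, P value = 0.0428, exact permutation 0.1), with P values of 0.0544 by DESeq2 and 0.0464 by edgeR, and the limma P value was above 0.05 without TG replicate 2, WT replicate 1 or WT replicate 3. The third Elk gene, Kcnh8, was low, with values of 13.6 to 30.9 in all mice (log2 fold change 0.05, SE 0.31). The Kcnh genes of the Erg branch lay on both sides of 0, with Kcnh2 at -0.05 (SE 0.07) and Kcnh7 at 0.08 (SE 0.09).

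The Kcnq channels carry the M current, which muscarinic receptors close. Kcnq3 read 9082, 10760 and 10232 in Shank3 TG mice against 9516, 9933 and 10147 in WT mice, and Shank3 TG mice held both its lowest and its highest value (log2 fold change 0.02, SE 0.06). Kcnq5 read 3687, 4288 and 4013 against 3907, 3927 and 4092, with the extremes in the same mice (0.00, SE 0.06). Kcnq1 was low, with 40.3, 21.4 and 38.0 against 26.3, 26.2 and 24.5, so that TG replicate 2 was the lowest library and the other Shank3 TG mice the highest (0.31, SE 0.26). Its exons share 121 bases with the antisense gene Kcnq1ot1.

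Of the 12 genes of the inward rectifiers (Kcnj), 9 were below 0 (75%, against 50.8% of all genes) and 3 above. Their median log2 fold change of -0.06 was smaller in size than their median SD between mice of 0.19, and 1 of them had an unadjusted P value below 0.05 (8.33%, against 4.31% of all genes). Kcnj4, Kcnj2, Kcnj12 and Kcnj14 encode strong inward rectifiers, which hold the membrane near rest. Kcnj12 (ENSMUSG00000042529, chr11:61022564-61071131) read 399, 402 and 364 in the Shank3 TG mice, against 439, 434 and 449 for WT, and the groups did not overlap. Its level was 11.8% lower (log2 fold change -0.18, SE 0.07, limma, P value = 0.0321, DESeq2 0.0905, exact permutation 0.1), and the limma P value rose above 0.05 when TG replicate 3 or any WT library was left out. Kcnj4, the gene with the highest level per kb, read 5633, 5570 and 5407 against 5923, 5600 and 5917 (log2 fold change -0.07, SE 0.05), with WT replicate 2 inside the Shank3 TG range. Kcnj2 read 1105, 1578 and 1495 against 1451, 1308 and 1464, and Shank3 TG mice held both its lowest and its highest value (-0.03, SE 0.11). Kcnj14 read 55.5 to 93.3 over all mice (-0.18, SE 0.21).

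The other Kcnj genes serve ATP-sensitive channels, G protein-gated channels and glia. Kcnj11, the pore of the ATP-sensitive channel of neurons, read 549, 497 and 579 in Shank3 TG mice and 585, 594 and 610 in WT mice, without overlap (log2 fold change -0.14, SE 0.07, limma, P value = 0.0837, exact permutation 0.1). Its vascular relative Kcnj8 lay at -0.01 (SE 0.15). The G protein-gated subunits opened by dopamine, opioid and other receptors read 0.17 (SE 0.11) for Kcnj3, 0.16 (SE 0.14) for Kcnj6 and -0.06 (SE 0.10) for Kcnj9. Kcnj3 shares 31.1% of its exon bases with Gm26794 on the opposite strand. The astrocyte channels read -0.06 (SE 0.06) for Kcnj10 and -0.10 (SE 0.10) for Kcnj16. Of the 10 astrocyte markers 6 were below 0 and 4 above, with a median log2 fold change of -0.06. An unadjusted P value below 0.05 by limma was found for 2 of these markers, both lower (all genes, 2.33% lower). The part of astrocytes in the values of Kcnj10 and Kcnj16 was not tested.

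Of the 10 Kcnk leak channels 7 were below 0 (70%, against 50.8% of all genes) and 3 above, with a median of -0.06. None had an unadjusted P value below 0.05 by limma (all genes, 4.31%). Kcnk1 read 2880, 3020 and 2931 in Shank3 TG mice against 3143, 3160 and 2995 in WT mice (log2 fold change -0.07, SE 0.05). Kcnk2, a stretch-sensitive leak channel, read 2790, 3632 and 3409 against 3403, 3277 and 3481, with both extremes in Shank3 TG mice (-0.06, SE 0.08). Kcnk5 had the most negative fold change of the members, -0.52 (SE 0.26, limma, P value = 0.0731, exact permutation 0.2), at low values of 17.2, 13.5 and 12.7 against 22.9, 24.3 and 16.7. Kcnk13, a leak channel of microglia, read 355, 306 and 323 against 364, 329 and 372 (-0.11, SE 0.09). The 10 microglial marker genes were all below 0 as well, with a median log2 fold change of -0.12. An unadjusted P value below 0.05 by limma was found for 4 of them (all genes, 2.33% lower). Their summed level was 12972 to 14027 in Shank3 TG mice and 14194 to 14832 in WT mice. Of the 9 mural cell markers 8 were below 0 and 1 above, with a median of -0.11. The part of microglia in the value of Kcnk13 was not tested.

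Among the calcium- and sodium-activated channels, Kcnt2 and Kcnn2 had the lowest limma P values. Kcnt2 (ENSMUSG00000052726, chr1:140246158-140612067), a sodium-activated channel, read 907, 770 and 897 in the Shank3 TG mice, against 753, 803 and 681 for WT. TG replicate 2 lay below WT replicate 2, so the groups overlapped. The log2 fold change was 0.20 (SE 0.08, limma, P value = 0.0361, exact permutation 0.2), and of the 6 fits that leave out 1 library, those without TG replicate 2 and without WT replicate 2 gave a P value below 0.05. Its far more abundant relative Kcnt1 read 9082, 9231 and 9496 against 9816, 9097 and 10610 (-0.08, SE 0.06). Kcnn2, a small-conductance channel opened by calcium, read 910, 910 and 901 against 805, 888 and 778, the only member whose Shank3 TG values all lay above the WT values (log2 fold change 0.14, SE 0.06, limma, P value = 0.0507, exact permutation 0.1). Its relatives read 0.06 (SE 0.08) for Kcnn1 and -0.14 (SE 0.07) for Kcnn3. The large-conductance channel Kcnma1 lay at 0.05 (SE 0.07) and its neuronal beta subunit Kcnmb4 at 0.13 (SE 0.16), with 20.8% of the exon bases of Kcnmb4 shared with the antisense gene Kcnmb4os2.

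The auxiliary subunits form no pore and tune the channels they bind. Of these 11 genes 5 were above 0 and 6 below (54.5%, against 50.8% of all genes), with a median of -0.03. Kcne1l (ENSMUSG00000090122, chrX:142304752-142306294), also called Kcne5, encodes a short membrane protein that modifies Kcnq channels. It read 171, 169 and 157 in the Shank3 TG mice, against 197, 197 and 187 for WT, without overlap (log2 fold change -0.23, SE 0.10, limma, P value = 0.0425, DESeq2 0.136, exact permutation 0.1), and the P value stayed below 0.05 without TG replicate 1 and rose above it without any of the other 5 libraries. Kcnip2 read 7122, 8365 and 7401 against 7895, 7476 and 9001 (-0.09, SE 0.08). Kcnab2 read 11587, 10268 and 11434 against 11498, 11250 and 11400 (-0.04, SE 0.05).

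Kcne2, a subunit gene of epithelia, had the largest fold change of the members and rested on 1 mouse. It read 72.9, 15.7 and 7.79 in the Shank3 TG mice, against 9.16, 5.61 and 8.84 for WT, and its mean of 20.0 passed the minimum of 10 only through the high Shank3 TG values. TG replicate 1 stood far above the other 5 libraries, and TG replicate 2 came next. The log2 fold change was 1.35 (SE 0.63, limma, P value = 0.0572, DESeq2 0.00201, exact permutation 0.3), and 0.48 without TG replicate 1. In the same library the genes of the choroid plexus were high, an epithelium that secretes cerebrospinal fluid and is known to express Kcne2. Ttr, which encodes the transthyretin that this epithelium secretes, read 13701, 1122 and 204 in Shank3 TG mice and 322, 120 and 432 in WT mice. Of the 19 choroid plexus genes tested 16 were above 0, and 5 of them had an unadjusted P value below 0.05 by limma (all genes, 1.98% higher). Kcnj13, an inward rectifier of the same epithelium, was below the minimum with a mean of 8.50 and read 35.2, 6.74 and 0.974 against 3.43, 4.68 and 0. The part of choroid plexus tissue in these values was not tested.

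**Figure D3:**
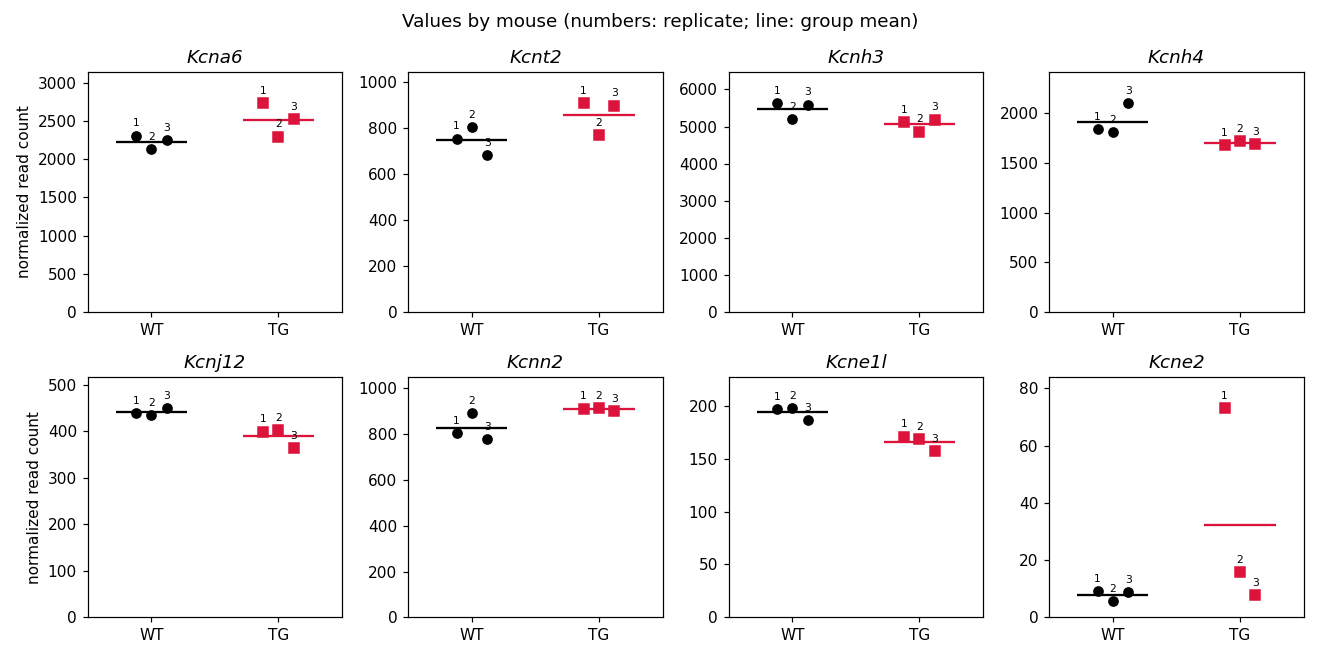
Normalized read count per mouse (linear axis from 0) for 6 potassium channel genes with an unadjusted P value below 0.05 and for Kcnn2 and Kcne2. Black circles are WT and red squares Shank3 TG mice, digits are replicate numbers and lines are group means, and for Kcne2 the single value of 72.9 in TG replicate 1 sets the Shank3 TG mean.

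For several members both the lowest and the highest library were Shank3 TG mice. TG replicate 2 was the lowest library for 23 of the 80 members (28.7%, against 18.9% of all genes). The members described next were chosen by their pattern over the libraries after their values were seen, so their counts and medians are a description. For 7 members, Kcna4, Kcnd2, Kcnj2, Kcnk2, Kcnq3, Kcnq5 and Kcnab1, the lowest library was TG replicate 1 and the highest TG replicate 2 (8.75%, against 5.45% of all genes). As log2 ratios to the WT mean, their medians were -0.27, 0.13 and 0.01 in TG replicates 1, 2 and 3. The 15 spiny projection neuron markers had medians of -0.32, 0.13 and -0.13 in the same libraries. The list's 13 genes below 0 and 2 above 0 gave a median log2 fold change of -0.14, and none had an unadjusted P value below 0.05 by limma. The 10 striatal interneuron markers ran the same way, with medians of -0.15, 0.11 and -0.02 in TG replicates 1, 2 and 3.

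Another set was chosen by a wider rule, in which the highest library could be either of 2 Shank3 TG mice, so its size does not compare with that of the first. For 13 members, Kcnc2, Kcnc4, Kcnf1, Kcnh1, Kcnj3, Kcnj9, Kcnk3, Kcnk4, Kcnn1, Kcnq1, Kcnab2, Kcnip3 and Kcnip4, TG replicate 2 was the lowest library and TG replicate 1 or 3 the highest (16.2%, against 8.26% of all genes). Their medians were 0.14, -0.13 and 0.14 in TG replicates 1, 2 and 3. In TG replicate 1 the single genes ran from -0.03 to 0.63, so not all of them lay above the WT mean there. The 15 markers of the excitatory neurons of the cortex, which borders the striatum, had medians of 0.12, -0.33 and 0.21, with a summed level of 61132, 43691 and 60442 in the Shank3 TG mice and 50773 to 56742 in the WT mice. The part of spiny projection neurons, interneurons or cortical neurons in the values of the members of either set was not tested. Without TG replicate 2, 13 members had an unadjusted P value below 0.05 by limma (5.84% of all genes did), of which 8 were higher in Shank3 TG mice, among them Kcnf1 with a log2 fold change of 0.29 and Kcnj3 with 0.32, against 0.16 and 0.17 with all libraries. Without WT replicate 3 only 2 members, Kcna6 and Kcnk5, had such a P value (3.34% of all genes).

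**Figure D4:**
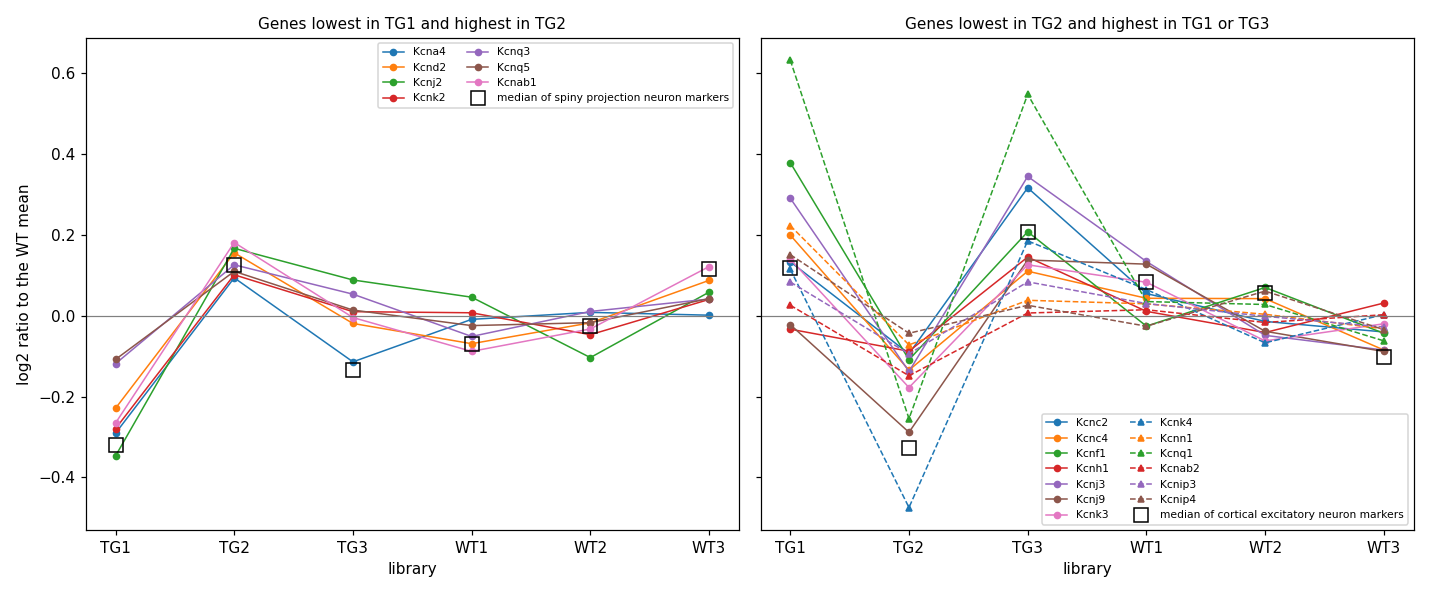
Log2 ratio to the WT mean (vertical axis) in each library (horizontal axis) for the 7 genes lowest in TG replicate 1 and highest in TG replicate 2 (left) and the 13 genes lowest in TG replicate 2 and highest in TG replicate 1 or 3 (right). Each line joins the values of 1 gene and open squares are the medians of the 15 spiny projection neuron markers (left) and the 15 cortical excitatory neuron markers (right), which lie at -0.32 in TG replicate 1 and at -0.33 in TG replicate 2.

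The partners of these channels were taken from a list of 54 genes, of which 52 were tested. The list holds genes that bind, cluster or regulate potassium channels or carry potassium by other routes. It also holds 4 cyclic nucleotide-gated HCN channels and 4 genes of the sodium leak channel complex. By limma, 31 of the 52 were above 0 (59.6%, against 49.2% of all genes) and 21 below, with a median log2 fold change of 0.01. None passed an adjusted or an unadjusted P value of 0.05 by limma, against 4.31% of all genes at the unadjusted threshold. DESeq2, edgeR and limma-voom gave 0 at an unadjusted 0.05 too. The groups did not overlap for 4 of the 52 (7.69%, against 10.1% of all genes). Dlg1, a scaffold that clusters Kcna channels, read 6922, 7122 and 7311 in Shank3 TG mice against 6886, 6829 and 6604 in WT mice (log2 fold change 0.07, SE 0.04). Lgi1, a secreted protein of Kcna complexes, lay at 0.09 (SE 0.04) and Fxyd6, a regulator of the sodium-potassium pump, at 0.11 (SE 0.05). Gnb2, a G protein beta subunit that opens G protein-gated channels, read 7587, 7626 and 7473 against 8223, 7919 and 8017 (-0.09, SE 0.04). The partners of Kcnd channels, Dpp6 and Dpp10, lay at 0.02 (SE 0.04) and 0.13 (SE 0.07). The sulfonylurea receptors that pair with Kcnj11 and Kcnj8, Abcc8 and Abcc9, lay at -0.08 (SE 0.12) and 0.06 (SE 0.08).

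The remaining 14 protein-coding Kcn genes had means below 10. Just inside the minimum were Kcnk5 at 17.9, Kcnrg at 19.7 and Kcne2 at 20.0, and just outside were Kcnn4 at 9.41, Kcnj13 at 8.50 and Kcnk7 at 6.29. The other 11 had means from 0 for Kcnk16, which was listed at 0 in every library, to 4.34 for Kcna10. They include Kcnj1, a channel of the kidney, with 1 value above 0 in the 6 libraries, and Kcne1, a subunit of the cardiac channel, with 1 value above 0 as well.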

How the data were processed

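Striatal RNA was sequenced with 1 library per mouse from 3 WT and 3 Shank3 TG mice, grouped by the sample labels. The authors made the libraries with a TruSeq kit that does not mark strand, trimmed the reads (Trimmomatic 0.35), aligned them to GRCm38 with TopHat2 2.1.0 and obtained counts for each gene from HTSeq. The options for counting and the annotation release are not given in the sources used here. The deposited values are a signal, namely gene counts that the authors scaled by DESeq2 size factors, here called normalized read counts. Whole reads were recovered from the value that 1 read has in each library, and 100% of values came out whole within 0.01, with totals of 27689589 to 36647626. Pairs of libraries correlated at a Pearson r of 0.992 to 0.995 (log2 values), and no library was a copy of another.

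Of 46078 genes listed, 45143 were matched to GENCODE release M21. Genes with a mean of 10 or more (17605) were tested with limma 3.58.1 in R 4.3.3, using log2(value + 1) and a trended prior variance, two-sided, with Benjamini-Hochberg adjustment at 0.05, which called 1 gene. On the recovered reads DESeq2 1.42.0 called 7 genes, and edgeR 4.0.16 (quasi-likelihood) and limma-voom 1 each. The fits were tested on simulated data. The alternatives were these count models, scaling by TMM or by library totals, the filter dropped or set at a mean of 50, pseudocounts of 0.5 and 5, each library left out, and the replicate number as a block. P values set the difference between the groups against the spread between these mice, and limma draws that spread toward the trend over all genes.

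The members and the lists of cell markers and partners were chosen with earlier results of these data known. Genes were named if their unadjusted limma P value was below 0.05, if they led their family in level per kb, if they had the lowest or highest fold change of their family, if they lay next to the minimum mean of 10, or if they stood in a list of members with a known role. Other genes, such as Kcnd1, Kcnd3, Kcnh2, Kcnh8, Kcnj14, the partners, the other genes with means below 10 and those of the library patterns, fall outside this rule and were named after their values were seen. A few members count in the totals but are not reported here.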

Additional observations from a re-analysis of the deposited data

How the results depend on the processing

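No member passed an adjusted P value of 0.05 by limma under any of the alternatives, and none did by DESeq2, edgeR or limma-voom. Members with an unadjusted P value below 0.05 numbered 5 to 9 under the other settings (5 by DESeq2, 9 with no filter). Of all genes, 2.45% had one by DESeq2 and 4.19% with no filter, in a range of 2.45% to 5.82% under these settings. With 1 library left out the members numbered 2 (without WT replicate 3, all genes 3.34%) to 13 (without TG replicate 2, all genes 5.84%). Over these fits all genes gave 2.85% to 7.54%. The count of members whose groups do not overlap was 10 to 26 with 1 library left out, when all genes gave 17% to 25.6%. The 10 (12.5%) came without TG replicate 3, where all genes gave 17%. The 26 (32.5%) came without TG replicate 2, where all genes gave 21.2%. The count is not affected by the test, the filter or the pseudocount. It stayed within 1.5 times under TMM scaling and library totals. Of the partners, 1 had an unadjusted P value below 0.05 with no filter (all genes, 4.19%). With 1 library left out 0 to 5 partners had one (all genes, 2.85% to 7.54%). Shank3 had a log2 fold change of 1.01 to 1.10 throughout. The median log2 fold change of the members ran from -0.019 to 0.009.

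The labels state no pairing of the mice by replicate number. The deviations of same-numbered mice correlated by 0.0474, 0.0163 and 0.0928, and those of differently numbered mice by -0.125 to 0.0771. With 3 mice per group, such correlations cannot tell whether mice were paired. With the replicate block, 8 members had an unadjusted P value below 0.05 by limma (4 higher and 4 lower, 6 of them shared with the fit without the block, 5.82% of all genes), as had 3 partners, and no member passed an adjusted P value of 0.05.

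Kcnj8 turned from -0.0061 to 0.0063 by limma-voom. With 1 library left out the sign turned for 40 of the 80 members, 5 of which had a log2 fold change larger in size than the members' median of 0.07. For those named by the rule or given with a fold change, the log2 fold changes ran from -0.071 to 0.016 for Kcnab2, -0.124 to 0.068 for Kcnd2, -0.308 to 0.022 for Kcng4, -0.130 to 0.0064 for Kcnh2, -0.156 to 0.406 for Kcnh8, -0.154 to 0.014 for Kcnj16, -0.129 to 0.127 for Kcnj2, -0.167 to 0.522 for Kcnj5, -0.151 to 0.088 for Kcnj8, -0.155 to 0.058 for Kcnj9, -0.135 to 0.055 for Kcnk2, -0.0067 to 0.135 for Kcnma1, -0.017 to 0.130 for Kcnn1, -0.033 to 0.089 for Kcnq3, -0.047 to 0.062 for Kcnq5, -0.335 to 0.069 for Kcnrg and -0.054 to 0.045 for Kcnv1. The cause was not tested. At these depths the genes with means under 100, 12 of the 80 members, had a median SD between mice of 0.303 on the log2 scale, against 0.134 over all members.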
